A study of Homo sapiens with 6 samples.

Results

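Transcripts of 10 genes for iron storage, uptake and export were followed in Huh7 cells, a human hepatocellular carcinoma line, after knockdown of CTSV. The deposited table holds 27394 gene names, and each of the 10 stands in it under 1 name. NCOA4, TFRC, TFR2, SLC40A1, HAMP, IREB2 and ACO1 were taken for their role in iron handling. FTH1, FTL and HEPH were taken because their counts differ between these same libraries, so their values are given as a description without a test. By their titles, 3 libraries hold a short hairpin RNA (shRNA) against CTSV, the cathepsin V gene, and the other 3 a control shRNA. The labels give the genotype of the first group as CTSV knockdown and that of the control cells as WT, and both groups were grown in DMEM with 10% fetal bovine serum. The sources used here do not give the shRNA sequences, the number of hairpins or clones, or the time of harvest. They also leave unsaid whether the 3 libraries per group are separate cultures, so each p-value reads the spread among these libraries alone, and that spread may be technical.

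Cells bring in iron bound to transferrin through the transferrin receptor, keep what they do not use inside ferritin, a shell of heavy (FTH1) and light (FTL) chains, and export it through ferroportin (SLC40A1). In hepatocytes the hormone hepcidin (HAMP) is made in response to transferrin iron and inflammation, and it removes ferroportin from the membranes of other cells. Inside the cell the iron-regulatory proteins ACO1 (also called IRP1) and IREB2 (IRP2) bind a hairpin, the iron-responsive element, when iron is scarce. Binding in the 5′ untranslated region of ferritin and ferroportin mRNA blocks translation, and binding in the 3′ untranslated region of TFRC mRNA protects it from decay.

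The hairpin has a bulged C, a stem of 5 paired bases and a loop of 6 bases, and it is shown here because it joins storage, uptake and export genes under one control. Transcripts of GENCODE 29 on hg38 were searched on the transcript strand for a C, 5 bases, CAGTG, 1 base other than G and 5 further bases that pair with the first 5, G with T allowed. Of 14499 principal coding transcripts, 141 (0.972%) held a match in any region and 12 (0.0828%) held one in the 5′ untranslated region. Among the 10 iron genes, 4 held a match and 6 did not. A match is a string of letters, not a shown binding site. The sites are printed 5′ to 3′ on the minus strand of chr11:61967573-61967602 for FTH1, the plus strand of chr19:48965335-48965364 for FTL and the minus strand of chr2:189580660-189580689 for SLC40A1. The TFRC sites lie on the minus strand at chr3:196050978-196051007, chr3:196050574-196050603, chr3:196050509-196050538 and chr3:196050462-196050491. Capitals mark the bulged C and the loop.
FTH1, 5′ untranslated region: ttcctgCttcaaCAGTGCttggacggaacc
FTL, 5′ untranslated region: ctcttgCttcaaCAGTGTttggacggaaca
SLC40A1, 5′ untranslated region: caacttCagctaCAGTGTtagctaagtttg
TFRC, 3′ untranslated region, site 1: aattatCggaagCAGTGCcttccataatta
TFRC, 3′ untranslated region, site 2: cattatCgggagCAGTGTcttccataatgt
TFRC, 3′ untranslated region, site 3: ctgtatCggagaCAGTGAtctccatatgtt
TFRC, 3′ untranslated region, site 4: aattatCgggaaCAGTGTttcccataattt
The FTL window shared 26 of 30 bases with that of FTH1, the SLC40A1 window 13, and the TFRC windows 9 to 11.

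The targeted gene checked the labels. CTSV had 304, 264 and 296 counts in the CTSV shRNA libraries, against 755, 740 and 658 in the control shRNA libraries. Every knockdown library lay below every control library. Library totals were between 16258803 and 18106207 counts. All 10 hepatocyte markers on a fixed list were above 1 CPM (counts scaled to a common library size, TMM-normalised), ALB, AFP and APOB highest among them. Many markers of other cell types were not among the genes counted, and they were not read as absent. Of 12 macrophage markers 3 were measured, and CD14 and TIMD4 were above 1 CPM. Of 12 erythroid markers 2 were measured, and EPOR alone was above 1 CPM. Of 10 endothelial markers 3 were measured, and PECAM1 and STAB2 were above 1 CPM. Of 10 fibroblast and stellate cell markers 7 were measured and 6 were above 1 CPM, RELN and LUM highest. Of the 6 tested, 3 rose and 0 fell, and the list summed to 188 to 201 CPM in knockdown and 145 to 155 CPM in control libraries. Their part in the results was not tested.

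In knockdown libraries ferritin and hepcidin transcripts were lower, hephaestin transcripts were higher from a very low level, and those of the receptor TFR2 rose, while TFRC, ferroportin, the ferritinophagy receptor and the iron-regulatory proteins differed by less. Each fold change sets CTSV shRNA over control shRNA, from edgeR's quasi-likelihood test, and a gene was called at a Benjamini-Hochberg adjusted p under 0.05 over all 15968 genes tested. Of the 7 genes chosen by role, 2 rose (TFRC and TFR2), 2 fell (HAMP and SLC40A1) and 3 were not called (NCOA4, IREB2 and ACO1). Over all genes tested 40.3% were called, 18.7% rose and 21.6% fell, so 2 of 7 each way is near the share over all genes. This count depended on the setting. With length and GC offsets 1 of the 7 rose and 5 fell (all genes, 2721 and 3982 of 15968), and with all deposited entries kept 1 rose and 4 fell (all genes, 2693 and 3906). Groups did not overlap in CPM for 6 of the 7, against 49.2% of all genes tested. HAMP was the 1 gene of the 7 to change by at least 1.5-fold, a size at which 8.66% of all genes rose and 3.89% fell. In bulk libraries, fewer cells that hold a transcript and less of it per cell cannot be told apart.

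**Figure D1:**
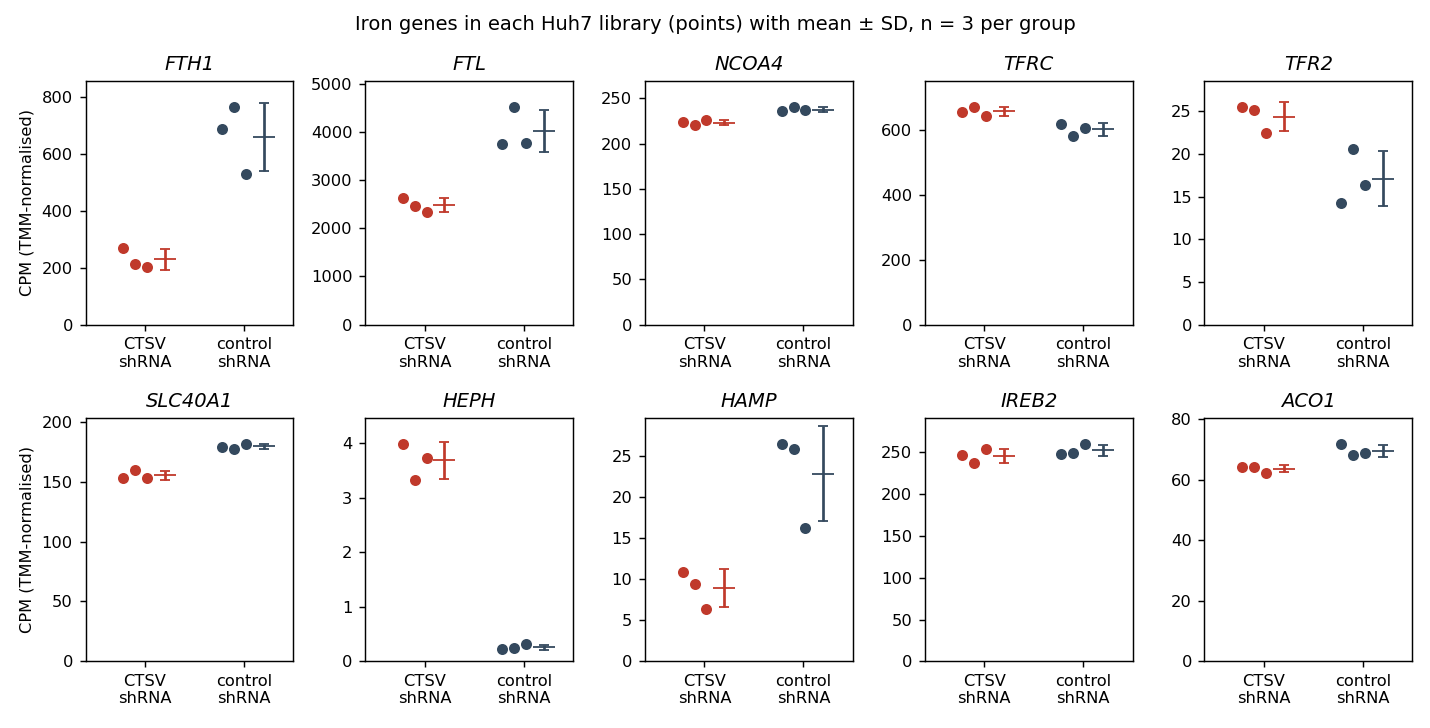
Level of each of the 10 iron genes in CPM (TMM-normalised, linear axes from 0), with 1 point per library and mean ± SD beside the points, CTSV shRNA left of control shRNA. FTH1, FTL and HAMP are lower and HEPH is higher in all 3 knockdown libraries, while NCOA4, TFRC, SLC40A1, IREB2 and ACO1 differ little on axes that start at 0.

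The light chain gene FTL is the most abundant transcript of the set. FTL had 43514, 40748 and 42485 counts in CTSV shRNA libraries, against 66989, 74986 and 60385 in control shRNA libraries. The groups did not overlap, and control replicate 2 was the highest library. FTL averaged 2479 ± 148 CPM in knockdown and 4010 ± 435 CPM in control libraries (SD, n = 3 each), a ratio of 0.618 and a log2 fold change of -0.69. FTL (ENSG00000087086) lies on the plus strand of chromosome 19 from 48965301 to 48966878 on hg38, with 1 annotated transcript.

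FTH1, which carries the ferroxidase activity of the ferritin shell, differed more. FTH1 had 4486, 3536 and 3675 counts in CTSV shRNA libraries, against 12257, 12708 and 8511 in control shRNA libraries. Control replicate 3 was the lowest control library, and it was still well above every knockdown library. The means were 229 ± 37.0 CPM in knockdown and 661 ± 120 CPM in control libraries (SD, n = 3 each), a ratio of 0.347 and a log2 fold change of -1.53. With 1 library left out at a time the log2 fold change of FTH1 ran between -1.67 and -1.41, and that of FTL between -0.74 and -0.60. FTH1 (ENSG00000167996) spans 61959718 to 61967660 on the minus strand of chromosome 11 and has 12 annotated transcripts. It overlaps BEST1 on the opposite strand, which was given 116 counts on average over the 6 libraries. The strand setting of the counting is unknown, and reads of both genes in the overlap may not have been told apart.

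Because the heavy chain was lower by more than the light chain, the balance between them differed. Per base of transcript, FTL counts were 13.6, 16.1 and 16.2 times those of FTH1 in CTSV shRNA libraries, against 7.65, 8.26 and 9.93 times in control shRNA libraries. The groups did not overlap, and control replicate 3 had the control ratio nearest the knockdown libraries. Together both genes took 0.274% ± 0.0183 of all counts in knockdown and 0.459% ± 0.0501 in control libraries (SD, n = 3 each). This balance follows from the same values by which both genes were chosen, and it was not tested.

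Processed ferritin pseudogenes are near copies of the mRNAs and can share reads with their parents. The table has 13 names of FTH1 pseudogenes and 6 of FTL pseudogenes, of which 4 and 2 passed the count filter. The most counted were FTH1P7 on chromosome 13, 97.3% identical to the FTH1 transcript over 552 aligned bases, and FTH1P8 on the X chromosome, 97.5% identical over 516. FTH1P7 had 89, 60 and 84 counts in CTSV shRNA libraries, against 151, 159 and 129 in control shRNA libraries (log2 fold change -0.93, SE 0.189, edgeR adjusted p = 0.000119). FTH1P8 had 45, 29 and 33 counts in CTSV shRNA libraries, against 106, 106 and 73 in control shRNA libraries (log2 fold change -1.42, SE 0.259, edgeR adjusted p = 2.84e-05). How multi-mapping reads were counted is not stated in the sources used here, so these counts may hold reads of FTH1 itself.

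Of the FTL pseudogenes, FTLP3 (97.7% identical to FTL) averaged 14.3 counts in knockdown and 29 in control libraries. FTLP12 (68.9% identical over its best alignment) averaged 25.3 counts in knockdown and 11.3 in control libraries. Neither was called (edgeR adjusted p = 0.0773 and 0.0685). All FTH1 pseudogene names summed to 3.84% ± 0.290 of the FTH1 count in knockdown and 2.67% ± 0.301 in control libraries (SD, n = 3 each), and those of FTL to 0.110% ± 0.0131 of the FTL count in knockdown and 0.0723% ± 0.0209 in control libraries. With these counts added to the parents, the log2 fold change was -1.51 for FTH1 and -0.69 for FTL.

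NCOA4, the receptor that carries ferritin to the lysosome for breakdown, had 3699, 3634 and 4111 counts in CTSV shRNA libraries, against 4210, 3995 and 3799 in control shRNA libraries. In CPM the groups did not overlap, at 223 ± 3.0 in knockdown and 238 ± 2.36 in control libraries (SD, n = 3 each), but the gene was not called (log2 fold change -0.09, SE 0.0469, edgeR adjusted p = 0.129). It passed when all deposited entries were kept (edgeR adjusted p = 0.0283) and with offsets for transcript length and GC content (0.019).

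**Figure D2:**
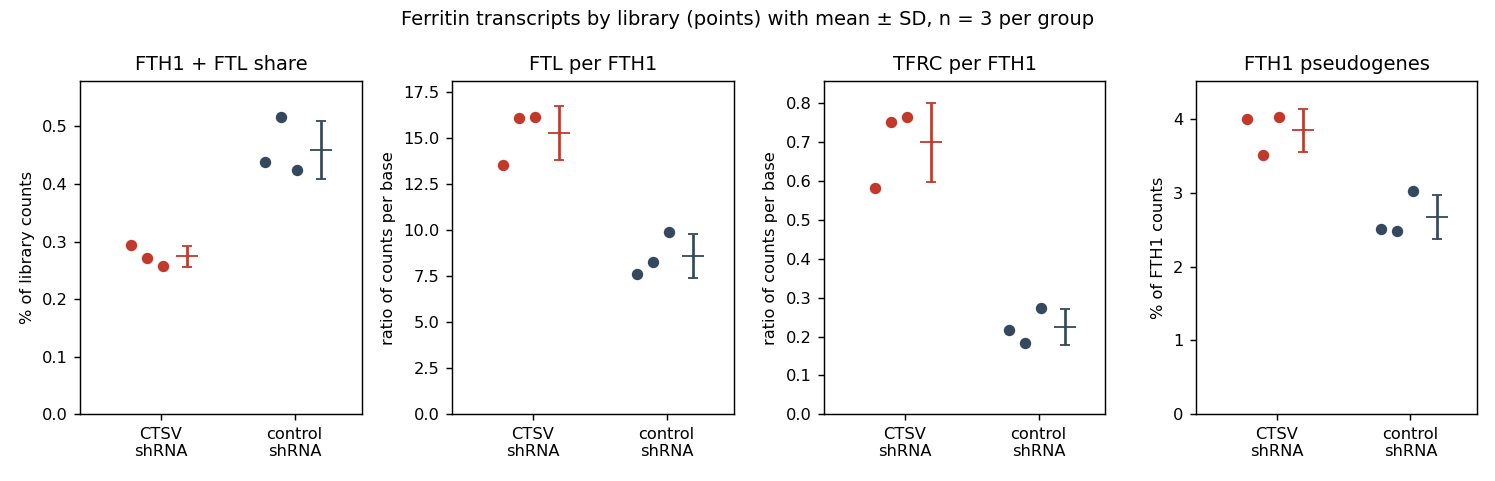
Summed FTH1 and FTL share of each library's counts, the ratios of FTL to FTH1 and of TFRC to FTH1 in counts per base of transcript, and summed FTH1 pseudogene counts as a percentage of FTH1 counts, with 1 point per library and mean ± SD (n = 3 per group). In each panel the CTSV shRNA libraries (left) lie apart from the control shRNA libraries, lower in ferritin share and higher in all 3 ratios. FTH1, the denominator of all 3 ratios, had been chosen for its change.

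On the uptake side, transferrin and both transferrin receptors rose, the common receptor by a small amount. TFRC, which takes up transferrin iron in most cells, had 10836, 11040 and 11684 counts in CTSV shRNA libraries, against 11003, 9644 and 9684 in control shRNA libraries. After normalisation the groups did not overlap, at 656 ± 13.1 CPM in knockdown and 600 ± 18.5 CPM in control libraries (SD, n = 3 each). The log2 fold change was 0.13 (SE 0.0419, edgeR adjusted p = 0.0138), a ratio of 1.09. This call did not stand up to all settings. It was lost without CTSV shRNA replicate 2 (edgeR adjusted p = 0.0893), without control shRNA replicate 2 (0.0538), with all deposited entries kept (0.067) and with length and GC offsets (0.0846).

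TFR2, a receptor of hepatocytes and erythroid cells that senses transferrin iron upstream of hepcidin, had 421, 415 and 407 counts in CTSV shRNA libraries, against 255, 342 and 263 in control shRNA libraries. Control replicate 2 was the highest control library and stayed below the knockdown libraries. TFR2 rose to 24.3 ± 1.69 CPM in knockdown libraries, against 17.1 ± 3.20 CPM in control libraries (SD, n = 3 each; log2 fold change 0.51, SE 0.118, edgeR adjusted p = 0.000607). Leaving out 1 library at a time gave log2 fold changes from 0.39 to 0.66, all called.

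TF, the ligand of both receptors, rose to 1391 ± 51.5 CPM in knockdown libraries, against 956 ± 30.2 CPM in control libraries (SD, n = 3 each; log2 fold change 0.54, SE 0.0401, edgeR adjusted p = 1.73e-13). With length and GC offsets its log2 fold change was 0.33, still called (edgeR adjusted p = 1.55e-08). It is also on the fixed list of 10 hepatocyte markers, of which 7 rose, 1 fell and 2 were not called. TF, on chromosome 3, belongs to a list of 12 further tested genes of uptake, reduction and delivery, of which 2 rose (16.7%), 4 fell (33.3%) and 6 were not called. These shares were near the 19.7% that rose and 33.4% that fell of all tested genes with a mean of at least 10 CPM. Over all genes tested 18.7% rose and 21.6% fell. STEAP2, a metalloreductase, rose (log2 fold change 0.55), and the divalent metal carriers SLC39A8 (-0.42) and SLC39A14 (-0.17) fell. PCBP1 (-0.27), an iron chaperone that loads ferritin, and PCBP4 (-0.40) fell as well. The more abundant PCBP2 was at 199 ± 7.50 CPM in knockdown and 186 ± 7.26 CPM in control libraries. It was not called (SD, n = 3 each; log2 fold change 0.09, edgeR adjusted p = 0.14). SLC11A2, the endosomal and apical iron carrier, was at 74.0 ± 1.55 CPM in knockdown and 77.0 ± 5.24 CPM in control libraries and was not called (n = 3 each; log2 fold change -0.06, edgeR adjusted p = 0.523).

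SLC40A1, the iron exporter ferroportin, fell by a small amount. It had 2533, 2633 and 2780 counts in CTSV shRNA libraries, against 3194, 2948 and 2913 in control shRNA libraries. The groups did not overlap, and SLC40A1 fell to 155 ± 3.73 CPM in knockdown libraries, against 179 ± 2.05 CPM in control libraries (SD, n = 3 each). The log2 fold change was -0.21 (SE 0.0503, edgeR adjusted p = 0.000987), a ratio of 0.866. SLC40A1 was called in every setting tried except the fold limit of 1.5, which its change did not reach.

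HEPH, hephaestin, a membrane ferroxidase known from enterocytes that works beside ferroportin, differed most among the 10. HEPH had 66, 55 and 68 counts in CTSV shRNA libraries, against 4, 4 and 5 in control shRNA libraries. Every knockdown library was above every control library, and HEPH passed the count filter through the knockdown libraries alone, since 3 of them and 0 of the control libraries reached 10 counts. The ratio was 13.9 and the log2 fold change 3.80, between 3.702 and 3.944 with 1 library left out at a time. The gene (ENSG00000089472) lies on the plus strand of the X chromosome from 66162549 to 66268867, with 9 annotated transcripts. Even in knockdown libraries HEPH stayed the lowest of the 10 per base, at 0.856 ± 0.0772 CPM per kilobase, against 0.0600 ± 0.0107 in control libraries (SD, n = 3 each).

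Most markers of enterocytes moved with HEPH. Of a fixed enterocyte list, 13 markers were measured. HEPH is one of them, but it was chosen for its change and is not counted here, and SLC40A1 fell. Over all genes tested 18.7% rose and 21.6% fell. With HEPH and SLC40A1 left aside, the 11 others all rose, and their summed level was 1141 to 1157 CPM in knockdown and 652 to 679 CPM in control libraries. Rises were not particular to this list, since 7 of 10 hepatocyte markers rose and 1 fell. CDX1, FABP2 and CYBRD1 of the enterocyte list were not among the genes counted. The part of the enterocyte markers in the HEPH value was not tested. The 2 other multicopper ferroxidase genes are CP, the plasma ferroxidase ceruloplasmin, and HEPHL1. CP was at 8.94 ± 1.26 CPM in knockdown and 11.45 ± 0.478 CPM in control libraries and was not called (SD, n = 3 each; log2 fold change -0.36, edgeR adjusted p = 0.054). It passed without CTSV shRNA replicate 1 (0.0256), with a replicate block (0.0471), with all deposited entries kept (0.0331) and with length and GC offsets (0.0223). HEPHL1 had 18, 38 and 12 counts in CTSV shRNA libraries, against 11, 2 and 7 in control shRNA libraries. It rose (log2 fold change 1.75, SE 0.590, edgeR adjusted p = 0.0164), but the call was lost without CTSV shRNA replicate 2 (log2 fold change 1.13, edgeR adjusted p = 0.244) or control shRNA replicate 2 (1.33, 0.0964).

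Of 9 other tested genes of export and scavenging, 3 fell (33.3%) and 2 rose (22.2%), with a median log2 fold change of -0.14. These shares were near those of all tested genes with a mean of at least 10 CPM, of which 33.4% fell and 19.7% rose with a median of -0.07. HP, which binds free haemoglobin, fell to 4.89 ± 1.61 CPM in knockdown libraries, against 10.4 ± 2.10 CPM in control libraries (SD, n = 3 each; log2 fold change -1.08, SE 0.199, edgeR adjusted p = 3.17e-05). The porphyrin and drug exporter ABCG2 (-0.83) and the endosomal haem carrier SLC48A1 (-0.63) fell as well. LRP1, the receptor for haem bound to hemopexin, rose (0.18), a call that was lost with length and GC offsets (log2 fold change 0.02, edgeR adjusted p = 0.745).

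Hepcidin fell most among the genes chosen by role. HAMP had 181, 155 and 116 counts in CTSV shRNA libraries, against 473, 430 and 261 in control shRNA libraries. CTSV shRNA replicate 3 and control replicate 3 were the lowest of their groups, and the groups did not overlap. HAMP fell to 8.91 ± 2.32 CPM in knockdown libraries, against 22.9 ± 5.75 CPM in control libraries (SD, n = 3 each). The log2 fold change was -1.37 (SE 0.161, edgeR adjusted p = 9.48e-09), a ratio of 0.387. It ran from -1.57 to -1.17 with 1 library left out at a time and was called in every setting tried. Control replicate 3, lowest for HAMP, was also the lowest control library for FTH1, and without it the log2 fold changes were -1.57 for HAMP and -1.67 for FTH1.

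The HAMP promoter is known to carry elements for BMP signalling through SMAD proteins and for IL-6 signalling through STAT3. The stretch from -120 to -61 relative to the start site (RefSeq, GRCh38.p14, plus strand of chr19:35282408-35282467) is shown because HAMP fell most among the genes chosen by role and this stretch holds a match to each motif. It holds 1 GGCGCC, from -105, and 1 TTCNNNGAA, from -93, both in capitals and both the same on either strand.
HAMP promoter: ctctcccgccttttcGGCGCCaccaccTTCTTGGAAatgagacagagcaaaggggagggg
Of 35116 promoters of 300 bases in the RefSeq table, 19.2% held GGCGCC, 7.66% held TTCNNNGAA and 0.766% held both. Of the 8 iron genes with a promoter in the table, HAMP alone held TTCNNNGAA, while GGCGCC also stood in those of ACO1, IREB2 and TFRC.

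Among 20 tested regulators of hepcidin besides TFR2, 3 rose (15%), 6 fell (30%) and 11 were not called, with a median log2 fold change of -0.09. Over all genes tested 18.7% rose and 21.6% fell. Of those with a mean of at least 10 CPM, 19.7% rose and 33.4% fell with a median of -0.07, so the list was near the share at that level. ID1 (-0.45) and SMAD6 (-0.49), which BMP signalling induces, fell. ID1 was at 236 ± 7.82 CPM in knockdown and 322 ± 13.7 CPM in control libraries (SD, n = 3 each; SE 0.0479, edgeR adjusted p = 1.25e-09). SMAD7, another gene induced by BMP signalling, was not called (log2 fold change -0.12, edgeR adjusted p = 0.223). The ligand gene BMP2 fell (-0.14), but not without any of CTSV shRNA replicates 1, 2 and 3 or control shRNA replicates 2 and 3 (edgeR adjusted p from 0.0613 to 0.131), and the receptor gene BMPR2 rose (0.22), a call lost with length and GC offsets (0.291). IL6ST, the signalling subunit of the IL-6 receptor, fell to 272 ± 11.3 CPM in knockdown libraries, against 402 ± 20.3 CPM in control libraries (SD, n = 3 each; log2 fold change -0.57, SE 0.0480, edgeR adjusted p = 5.25e-12). STAT3 fell (-0.17), a call lost without CTSV shRNA replicate 1 (edgeR adjusted p = 0.0971) or control shRNA replicate 3 (0.119). The receptor subunit gene IL6R rose (0.53), a call lost without control shRNA replicate 1 (0.0788).

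TMPRSS6, a protease that restrains hepcidin by cleaving hemojuvelin, rose to 3.42 ± 0.814 CPM in knockdown libraries, against 1.89 ± 0.132 CPM in control libraries (SD, n = 3 each; log2 fold change 0.86, SE 0.303, edgeR adjusted p = 0.0222). That call was lost without CTSV shRNA replicate 1 (edgeR adjusted p = 0.136), CTSV shRNA replicate 3 (0.0516) or control shRNA replicate 1 (0.0649). FURIN, which processes prohepcidin, fell (-0.24). Hemojuvelin, under the older name HFE2, was at 1.23 ± 0.120 CPM in knockdown and 1.99 ± 0.509 CPM in control libraries and was not called (SD, n = 3 each; log2 fold change -0.68, edgeR adjusted p = 0.168).

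The iron-regulatory proteins were close to level. IREB2 had 4073, 3913 and 4616 counts in CTSV shRNA libraries, against 4421, 4141 and 4177 in control shRNA libraries. The groups overlapped, at 246 ± 8.44 CPM in knockdown and 252 ± 6.78 CPM in control libraries (SD, n = 3 each; log2 fold change -0.04, SE 0.0477, edgeR adjusted p = 0.559). ACO1 had 1062, 1060 and 1131 counts in CTSV shRNA libraries, against 1281, 1131 and 1105 in control shRNA libraries. In CPM its groups did not overlap, at 63.6 ± 1.16 in knockdown and 69.6 ± 1.98 in control libraries, but the gene was not called (SD, n = 3 each; log2 fold change -0.13, SE 0.0655, edgeR adjusted p = 0.111). With length and GC offsets both passed (IREB2 log2 fold change -0.12, edgeR adjusted p = 0.019, and ACO1 -0.21, 0.00426), and ACO1 also when all deposited entries were kept (0.0297). In the authors' deposited table the adjusted p was 0.47 for IREB2, 0.13 for ACO1 and 0.067 for NCOA4.

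IREB2 protein is broken down through FBXL5, an iron-sensing subunit of a ubiquitin ligase. FBXL5 rose to 58.4 ± 1.56 CPM in knockdown libraries, against 50.1 ± 2.21 CPM in control libraries (SD, n = 3 each; log2 fold change 0.22, edgeR adjusted p = 0.0131). Its partners CUL1 (-0.22) and RBX1 (-0.28) fell, and SKP1 (-0.08) was not called, though it passed with length and GC offsets (-0.20, edgeR adjusted p = 0.0074). The FBXL5 call was lost without CTSV shRNA replicate 3 (edgeR adjusted p = 0.05) or control shRNA replicate 3 (0.0557). That of RBX1 was lost without CTSV shRNA replicate 3 (0.163) or control shRNA replicate 2 (0.139). HERC2, a ubiquitin ligase that acts on NCOA4, rose (0.32). Of the further genes of ferritin turnover, the autophagy adaptor TAX1BP1 fell (-0.13), a call lost without CTSV shRNA replicate 1 (edgeR adjusted p = 0.054), CTSV shRNA replicate 2 (0.0868) or control shRNA replicate 3 (0.0693).

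**Figure D3:**
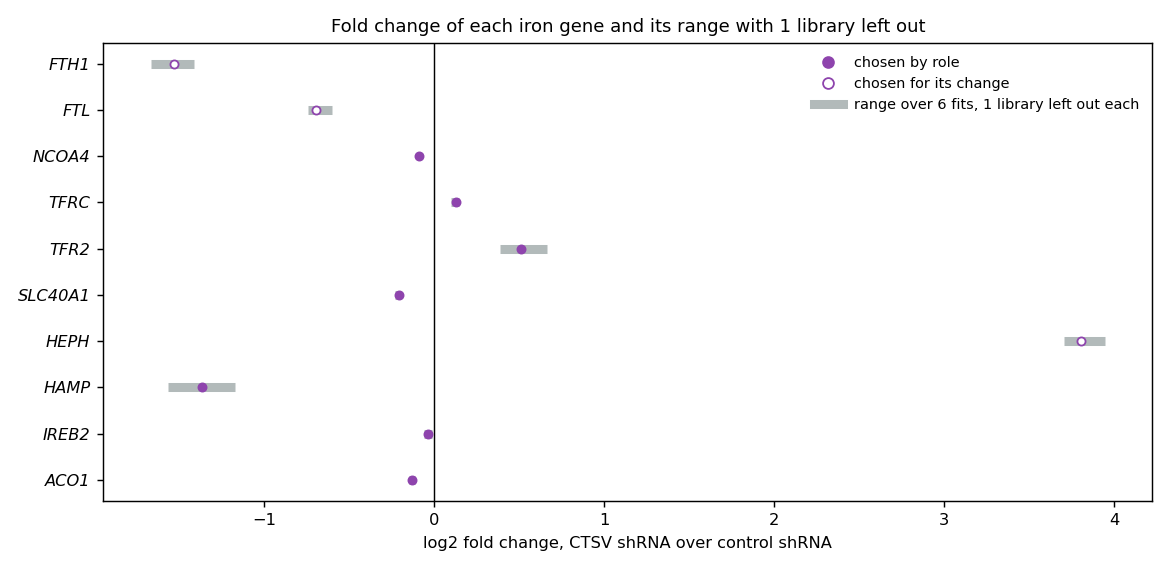
Log2 fold change of each iron gene, CTSV shRNA over control shRNA, from edgeR on all 6 libraries (filled circles for genes chosen by role, open circles for those chosen for their change), with the range over 6 fits that leave out 1 library each (grey bars). HEPH lies at 3.80, HAMP at -1.37, FTH1 at -1.53 and FTL at -0.69, and the other 6 between -0.21 and 0.51.

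The mRNA levels of iron-responsive transcripts can be set side by side by hairpin position, where FTH1 and FTL had been chosen for their change. With a hairpin match in the 5′ untranslated region, the log2 fold changes were -1.53 for FTH1, -0.69 for FTL and -0.21 for SLC40A1. With matches in the 3′ untranslated region, it was 0.13 for TFRC, whose call was lost in the 4 settings given above. Of other described carriers of such an element, EPAS1, a hypoxia-inducible factor, fell (-0.42), and SLC11A2 (-0.06) and CDC14A (-0.31) were not called, though CDC14A passed with all deposited entries kept (edgeR adjusted p = 0.0473) and with length and GC offsets (0.0469). These are mRNA levels, and block of translation by the hairpin cannot be seen in them. The ratio of TFRC to FTH1 in counts per base was 0.581, 0.751 and 0.765 in CTSV shRNA libraries, against 0.216, 0.182 and 0.274 in control shRNA libraries. It follows mainly from FTH1 (knockdown over control ratio 0.347), chosen for its change in these same libraries, since TFRC alone gave 1.09. The ratio was not tested.

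Per kilobase of the principal transcript, the order of the 10 genes was the same in both groups. In knockdown libraries the means in CPM per kilobase were 2824 for FTL, 187 for FTH1, 128 for TFRC, 96.8 for NCOA4, 45.1 for SLC40A1, 38.7 for IREB2, 13.7 for HAMP, 8.51 for ACO1, 7.77 for TFR2 and 0.856 for HEPH. In control libraries they were 4567 for FTL, 538 for FTH1, 117 for TFRC, 103 for NCOA4, 52.1 for SLC40A1, 39.7 for IREB2, 35.1 for HAMP, 9.32 for ACO1, 5.46 for TFR2 and 0.0600 for HEPH. Among neighbours in this order, IREB2 and HAMP overlapped in control libraries and no other pair did. FTH1 stood at 187 against 128 for TFRC in knockdown libraries, and at 538 against 117 in control libraries.

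Across the wider iron pathway, more genes fell than rose. Of 101 further tested genes on the iron lists, 36 fell (35.6%), 14 rose (13.9%) and 51 were not called, with a median log2 fold change of -0.11. Well expressed genes as a whole also leaned down. Among genes with a mean of at least 10 CPM, 32 of 80 iron genes fell (40%) and 10 rose (12.5%), against 33.4% and 19.7% of all 9440 tested genes at that level, and the medians were -0.12 and -0.07. At 1.5-fold or more, 8 of the 101 fell and 3 rose, against 3.89% and 8.66% of all genes tested.

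Of 18 tested genes of haem synthesis and breakdown, 9 fell (50%), 2 rose (11.1%) and 7 were not called (median log2 fold change -0.21). Of all genes tested 21.6% fell and 18.7% rose, and at 10 CPM or more 33.4% fell and 19.7% rose, so falls outnumbered rises there too. ALAS1, the rate-limiting enzyme of hepatic haem synthesis, fell to 63.9 ± 1.54 CPM in knockdown libraries, against 82.8 ± 0.575 CPM in control libraries (SD, n = 3 each; log2 fold change -0.38, SE 0.0629, edgeR adjusted p = 8.06e-06). FECH, which inserts iron into the porphyrin ring, fell (-0.52), as did UROD (-0.32). HMOX1, which opens the haem ring and frees its iron, fell to 6.09 ± 0.0904 CPM in knockdown libraries, against 10.1 ± 2.56 CPM in control libraries (SD, n = 3 each; log2 fold change -0.72, SE 0.177, edgeR adjusted p = 0.00114). The biliverdin reductase gene BLVRB (-0.59) fell and the synthesis gene PPOX (0.62) rose.

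Among 24 tested genes of mitochondrial iron import and iron-sulphur cluster assembly, 7 fell (29.2%), 2 rose (8.33%) and 15 were not called (median -0.09). Over all genes tested 21.6% fell and 18.7% rose, and at 10 CPM or more 33.4% fell and 19.7% rose. Falls on this list were thus no more frequent than at 10 CPM or more. The chaperone HSPA9 (-0.54), the cluster transfer factor BOLA3 (-1.12) and ISCA1 (-0.25) fell, while the mitochondrial iron importer SLC25A37 (0.32) rose. BOLA3 was at 7.07 ± 0.122 CPM in knockdown and 15.4 ± 1.36 CPM in control libraries (SD, n = 3 each). Of 10 tested genes of cytosolic cluster assembly, 3 fell (30%) and 1 rose (10%, median 0.03), with falls again near the 33.4% at 10 CPM or more. GLRX3 (-0.55), FAM96B (-0.64) and CIAPIN1 (-0.35) fell, and NDOR1 (0.35) rose.

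**Figure D4:**
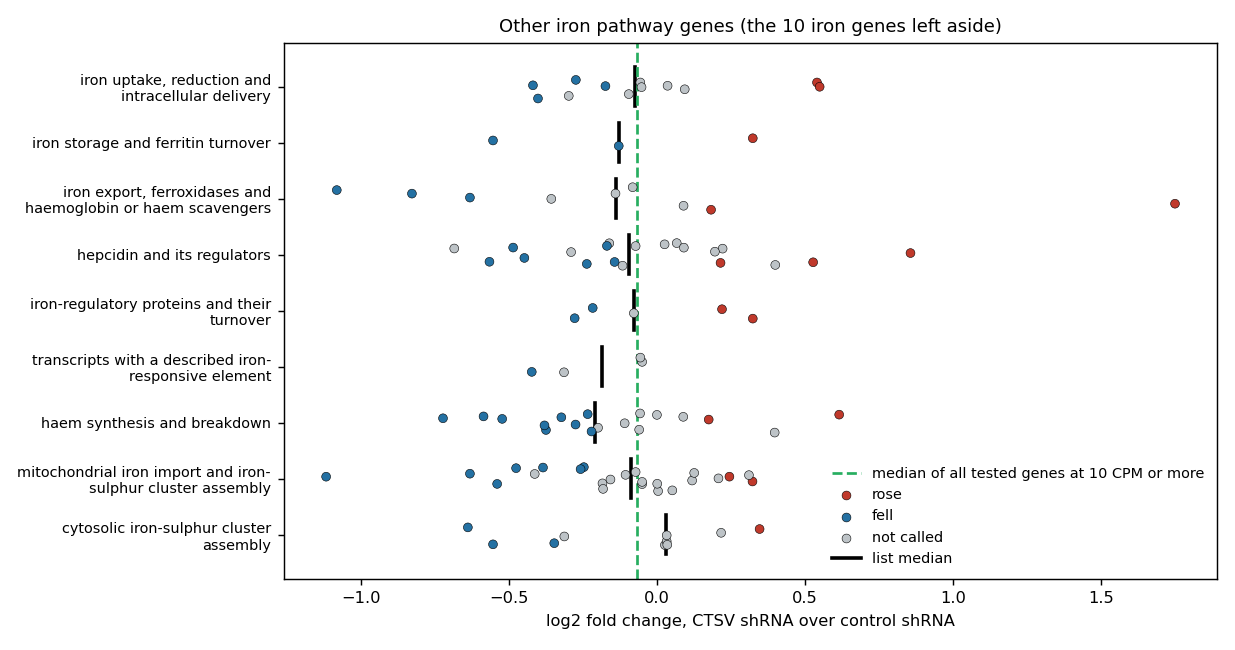
Log2 fold change of each further tested iron gene, CTSV shRNA over control shRNA, by list (a gene may stand in several lists), coloured by whether it rose, fell or was not called at an edgeR adjusted p under 0.05. Black ticks are list medians and the dashed line is the median of all tested genes with a mean of at least 10 CPM (-0.07). List medians lie at or left of it, except that of cytosolic assembly (0.03).

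The genes most like 3 of the members over the 6 libraries were found as those at the smallest Euclidean distance between centred log2 CPM values, a measure that mainly reads the difference between groups. Nearest to FTH1 were the chemokine gene CCL20 (distance 0.24), S100P (0.25) and FTH1P8 (0.25). Nearest to FTL were the mitochondrial import gene TOMM40 and the names RPS28P7 and SRA1, each at 0.10. Nearest to HEPH were the carbonic anhydrase gene CA4 (0.33), PRDM1 (0.66) and the brush border myosin gene MYO7B (0.77). CA4 averaged 0.956 ± 0.0420 CPM in knockdown libraries and was at 0 in all 3 control libraries. PRDM1 averaged 5.25 ± 0.558 CPM in knockdown and 0.415 ± 0.117 CPM in control libraries. MYO7B averaged 1.36 ± 0.240 CPM in knockdown and 0.0201 ± 0.0347 CPM in control libraries. All 3 distances to HEPH thus rest on few counts in control libraries.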

How the data were processed

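The deposited table of 6 libraries holds raw whole-number read counts per gene, made by the authors with no normalization recorded. The submitters' processing notes name HISAT2, StringTie, SAMtools and the build hg38. The counting tool, its strand setting and how multi-mapping reads were handled: not given in the sources used here. Log2 fold changes by the authors are deposited as control over knockdown, opposite in sign to those used here, beside raw and adjusted p-values by the authors, with no tool named.

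Copies of a name carry identical counts, so 1 entry per name was kept (27394 of 28915). Counts were tested with edgeR 4.0.16 in R 4.3.3 (glmQLFit and glmQLFTest, TMM, filterByExpr by group, no covariate), with Benjamini-Hochberg adjustment over 15968 genes, and the fit was tested on simulated data. SE is the fold change divided by the square root of the F statistic. CPM is TMM-normalised, and log2 CPM has a prior count of 2. The common biological coefficient of variation was 6.87%, a measure of the spread between replicates. Lengths are those of the longest APPRIS principal transcript in GENCODE 29, in which 99.6% of names were found. The members and lists were chosen with earlier results of these data known. Beside the members, the named genes are, for each list, the 4 called genes of smallest adjusted p and the largest rise and fall, and any further list gene was named after its values were seen. Alternatives were RLE size factors, no filter, a mean of 1 CPM, a replicate block, DESeq2 1.42.0, all entries kept, mitochondrial genes left out, loess offsets (span 0.5), pseudogenes summed, a fold limit of 1.5 and each library left out.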

Additional observations from a re-analysis of the deposited data

How the results depend on the processing

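With 1 library left out at a time, with RLE size factors, other count filters, DESeq2 or mitochondrial genes left out, HAMP, SLC40A1 and TFR2 kept their call and direction, and FTH1, FTL and HEPH their direction. The log2 fold change of TFRC ran from 0.10 to 0.14 over the libraries left out, was 0.097 with all deposited entries kept and 0.075 with length and GC offsets, and was not called in either of the last. With all entries kept, NCOA4 (-0.12) and ACO1 (-0.16) were called as lower. With length and GC offsets NCOA4 (-0.117), IREB2 (-0.118) and ACO1 (-0.21) were called and FTL was at -0.55. Both settings shift the median of all genes from 0.019 to -0.012. Of the 7 genes chosen by role, the number that rose was 2, between 1 and 2 with 1 library left out, 1 with all entries kept, 1 with length and GC offsets and 0 with a 1.5-fold limit. The number that fell was 2, but 4 with all entries kept, 5 with length and GC offsets and 1 with a 1.5-fold limit. Of the 101 further iron genes, 3 rose and 8 fell with a 1.5-fold limit, against 14 and 36 without it. Where the count changed with all entries kept or with offsets, the cause was not tested.

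Same-numbered libraries had deviations that correlated at -0.024, 0.039 and 0.125 over 9933 genes, and differently numbered ones at -0.175 to 0.137. These values gave no sign that the numbers pair the samples, but with 3 libraries per group they cannot exclude it. A replicate block gave 2996 genes that rose and 3490 that fell, against 2982 and 3451 without it. It changed no call among the genes chosen by role. Depth limits HEPH, at 4 or 5 counts per control library, and the ferritin pseudogenes that did not pass the count filter.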
